A study of Mus musculus with 6 samples.

Results

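Notch signalling passes between touching cells: a ligand of the Delta or Jagged family on one cell binds a Notch receptor on its neighbour, proteases release the receptor's inner part, and this joins the DNA-binding protein Rbpj to switch on genes such as those of the Hes and Hey families. In the presomitic mesoderm, the tissue that is cut into somites, this pathway runs a segmentation clock in which Hes7 represses itself and Lfng, and Mesp2 and Ripply2 then place the boundary of the next segment. The tissue is laid down by the primitive streak during gastrulation. The 10 genes described here are 2 Notch ligands (Dll1 and Dll3), a receptor (Notch1), a modifier of the receptor (Lfng), 3 Hes and Hey repressors (Hes7, Hes1 and Hey1), a feedback inhibitor (Nrarp) and 2 regulators of segment boundaries (Mesp2 and Ripply2). They were chosen by symbol for these roles, and all 10 were found among the 24975 genes of the count table.

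RNA was sequenced from mesoderm of mouse embryos at embryonic day 7.5, to ask which transcripts depend on the Hedgehog pathway. The Gli3R group (3 libraries) carried Mesp1-Cre/+;R26-Gli3R-IRES-Venus/+, in which Cre made in the Mesp1 lineage switches on Gli3R, a dominant negative repressor of Hedgehog transcription, together with the Venus reporter. The control group (3 libraries) carried Mesp1-Cre/+;R26-tdTomato/+, so that both groups held the Mesp1-Cre allele and differed in the reporter. Per the file headers, Gli3R cells were sorted for Venus and control cells for tdTomato, so Gli3R and the reporter with its gate cannot be told apart. Each library held 1000 sorted cells, from embryos pooled with their littermates. Each of 3 litters gave 1 library of each group, and libraries of 1 litter have the same replicate number.

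Library totals ran from 6592417 to 12635151 counts in the Gli3R group and from 5481190 to 10435790 in the control group. Control replicate 1 was the shallowest library and stood apart on the first principal component. Gli3, part of which the transgene encodes, averaged 44.5 ± 6.04 CPM in the Gli3R and 29.9 ± 4.30 CPM in the control libraries (CPM, counts scaled to a common library size by TMM; SD, n = 3 each), and its log2 fold change was 0.57 ± 0.15 (SE). It missed the threshold over the whole table (Benjamini-Hochberg adjusted p = 0.312 in the quasi-likelihood test of edgeR), and passed without the low-count filter and with litter as a block together (0.0109). All 10 mesoderm markers were expressed enough to be tested, with summed levels of 732 to 899 CPM in the Gli3R and 606 to 792 CPM in the control libraries. Single markers went both ways. In all 3 litters Hand1, Bmp4 and Vim were higher in the Gli3R library (15% of all tested genes were), and Foxf1, Tbx6 and Snai1 were lower (15.3%). Of 11913 genes tested, 13 fell (0.109%) and 3 rose (0.0252%) at an adjusted p under 0.05.

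Stretches of promoter sequence whose letters match sites of Rbpj or of Gli factors are shown first, as matches only. RefSeq promoter sequences (build GRCm38.p6) were matched by gene ID for 8 of the 10 genes (all but Hes1 and Hey1), and the 250 bases before each start were searched on both strands for GTGGGAA, a core of the Rbpj site through which Notch acts, and for GACCACCCA, the consensus site of Gli factors. The Rbpj core was present in the windows of Hes7 and Lfng and in 5.42% of 32851 promoter windows of the same length. The Hes7 stretch lies wholly within an exon annotated by GENCODE M21 (27 of its 27 bases), and the stretches of Lfng and Nrarp hold 0 exon bases. The exact Gli consensus was in none of the windows of these genes and in 0.225% of all. With 1 mismatch allowed it was in the windows of Lfng and Nrarp, and in 5.79% of all. The matched letters are in capitals, read on the strand of the gene.
Lfng, Rbpj core, chr5:140607222-140607248, plus strand: cgtatcccacGTGGGAAggagagatct
Hes7, Rbpj core on the reverse strand, chr11:69120263-69120289, plus strand: ctcccctcacTTCCCACatttggggct
Lfng, Gli consensus with 1 mismatch on the reverse strand, chr5:140607189-140607217, plus strand: gtaccccagcTGGGTGGTTcccagcccct
Nrarp, Gli consensus with 1 mismatch, chr2:25180548-25180576, plus strand: gaggccttctGACCACCCTggccagacca
Nrarp, Gli consensus with 1 mismatch, chr2:25180648-25180676, plus strand: cccacgtgggCACCACCCAatcgaaagag

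The windows of Ripply2 and Mesp2, the genes of segment boundaries, are given whole because both had low levels in the Gli3R libraries. Neither held an Rbpj core, a Gli consensus with up to 1 mismatch, or the T-box letters AGGTGTG (5.1% of all windows) that factors such as Tbx6 and Brachyury bind. Capitals mark the E box CANNTG, the site of basic helix-loop-helix factors such as Mesp2, which was in 66.2% of all windows. A match is a run of letters and not a bound site, and the search says nothing of enhancers outside these windows.
Ripply2, chr9:87015287-87015536, plus strand: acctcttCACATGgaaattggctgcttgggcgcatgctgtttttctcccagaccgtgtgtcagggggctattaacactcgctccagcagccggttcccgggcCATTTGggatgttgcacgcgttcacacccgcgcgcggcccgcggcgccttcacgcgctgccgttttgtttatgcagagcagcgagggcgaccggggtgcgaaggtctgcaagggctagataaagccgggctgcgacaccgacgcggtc
Mesp2, chr7:79810477-79810726, plus strand: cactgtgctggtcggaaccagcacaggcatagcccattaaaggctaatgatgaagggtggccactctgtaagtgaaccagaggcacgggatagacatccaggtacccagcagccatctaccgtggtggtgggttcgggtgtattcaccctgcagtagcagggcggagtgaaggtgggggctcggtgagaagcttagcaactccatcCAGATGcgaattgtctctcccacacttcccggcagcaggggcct

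Dll1 and Dll3, the Notch ligand genes of the presomitic mesoderm, were low in all 3 Gli3R libraries. Dll3 (Entrez gene 13389), whose product is known to act inside the cell on Notch rather than as an activating ligand, had 4.66, 4.23 and 4.14 CPM in Gli3R replicates 1, 2 and 3, against 16.3, 14.7 and 11.03 CPM in control replicates 1, 2 and 3. The Gli3R libraries were nearly equal, and each lay well below the lowest control library. Dll3 fell, with a log2 fold change of -1.67 ± 0.21 (SE; Benjamini-Hochberg adjusted p = 0.0234 in edgeR's quasi-likelihood fit). Within litters 1, 2 and 3 the log2 ratio (CPM + 0.5) was -1.71, -1.69 and -1.31. With litter as a block its adjusted p in the edgeR quasi-likelihood test was 0.0216. The call was lost without control replicate 2 (0.189), Gli3R replicate 1 (0.0788), Gli3R replicate 2 (0.132) or Gli3R replicate 3 (0.106) in the edgeR test, and without litter 2 (0.715) or litter 3 (0.115), while the log2 fold change stayed between -1.82 and -1.56 over 16 alternatives.

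Dll1 (13388), which encodes an activating ligand, had 5.51, 2.18 and 0.614 CPM in Gli3R replicates 1, 2 and 3, from 71, 17 and 4 reads, against 15.8, 16.4 and 9.64 CPM in control replicates 1, 2 and 3. The groups did not overlap, but the Gli3R libraries differed among themselves far more than for Dll3. The log2 fold change was -2.18 ± 0.50 (95% interval -3.29 to -1.07) and missed the threshold over the whole table (Benjamini-Hochberg adjusted p = 0.211 in edgeR's quasi-likelihood fit, and 0.0605 with litter as a block). It passed without the low-count filter (-2.17; adjusted p = 0.00213 in edgeR), in that fit with the litter block (-2.39; 1.23e-07) and without litter 1 (-3.16; 0.0201), and without Gli3R replicate 1 it was -3.25. The within-litter log2 ratios were -1.44, -2.65 and -3.19. The ratio of Dll1 to Dll3 CPM was 1.18, 0.515 and 0.148 in Gli3R replicates 1, 2 and 3, and 0.966, 1.11 and 0.874 in the control replicates. Per kilobase of exon this ratio was 0.865, 0.377 and 0.108 in the Gli3R and 0.706, 0.812 and 0.639 in the control libraries. It varied more among the Gli3R libraries than among the control libraries.

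Notch1 (18128), which encodes the receptor, had 3.57, 3.97 and 4.45 CPM in Gli3R replicates 1, 2 and 3, against 11.7, 4.33 and 4.57 CPM in control replicates 1, 2 and 3. Control replicate 1 alone was high, and in litters 2 and 3 the log2 ratios were -0.11 and -0.03. The log2 fold change of -0.74 ± 0.39 did not pass (Benjamini-Hochberg adjusted p = 0.821 in edgeR's quasi-likelihood fit), and without control replicate 1 it was -0.16. Lfng (16848), which encodes a glycosyltransferase that alters how Notch responds to its ligands, was near the limit of detection. It had 6, 4 and 4 reads in the Gli3R and 1, 17 and 7 reads in the control libraries and was not tested. Its level lay between 0.466 and 0.614 CPM in the Gli3R group and between 0.186 and 1.64 CPM in the control group, so the groups overlapped, and in litter 1 it was higher in the Gli3R library. Relative to TMM-scaled library size the Gli3R group had 2.05-fold fewer Lfng reads (95% interval 1.03 to 4.27, counting error only), and 1.17-fold fewer without control replicate 2. Without the low-count filter the log2 fold change was -0.89 ± 0.67 (adjusted p = 0.899 in edgeR).

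**Figure D1:**
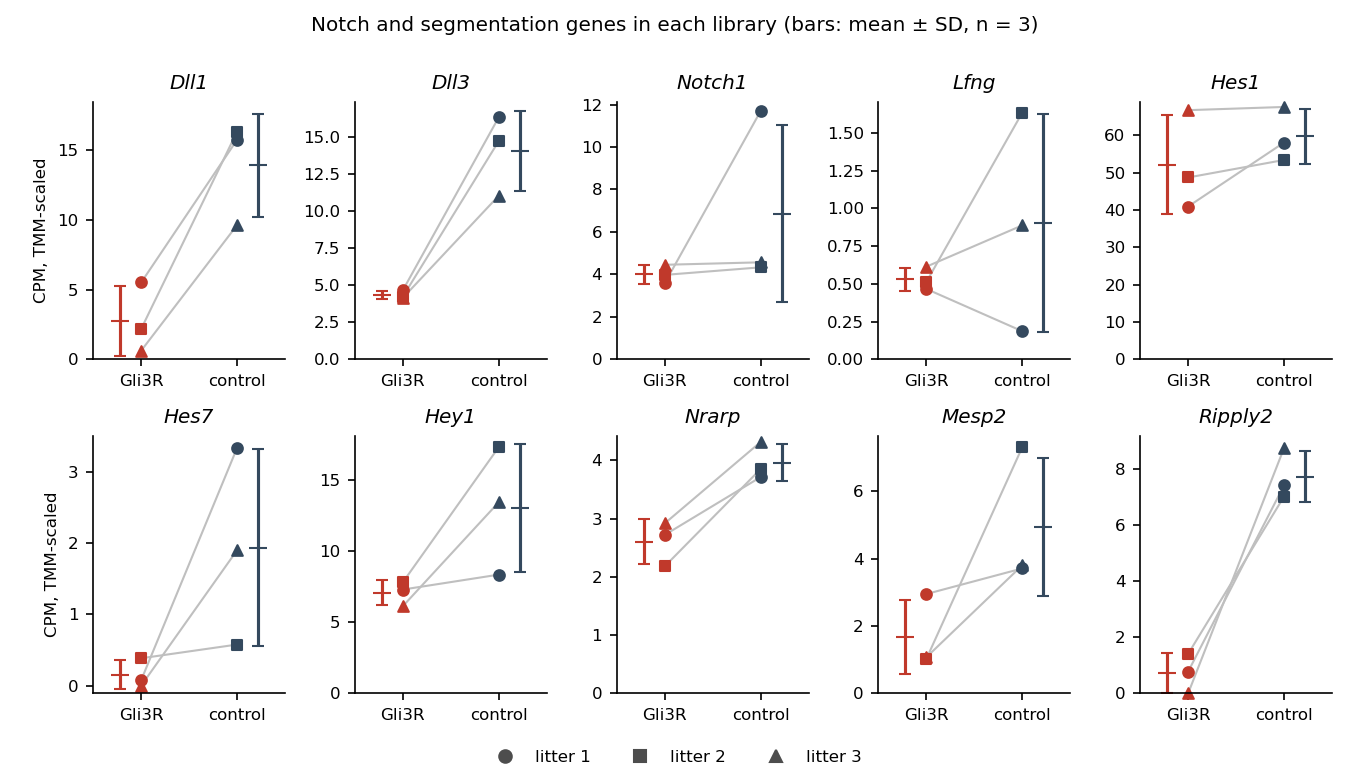
Level of each of the 10 genes (CPM, TMM-scaled, linear axis from 0, or from just below 0 for Hes7) in the 3 Gli3R and 3 control libraries. Symbols mark the litter, grey lines join libraries of 1 litter, and crossbars give the mean ± SD. Dll3 and Ripply2 lie well apart between the groups, while the Hes1 points overlap and 1 control library sets the Notch1 mean.

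Hes7 (84653), the repressor that drives the clock, had 1, 3 and 0 reads in Gli3R replicates 1, 2 and 3, against 18, 6 and 15 reads in control replicates 1, 2 and 3. These are levels of 0.0777, 0.384 and 0 CPM in the Gli3R and 3.34, 0.577 and 1.90 CPM in the control libraries. The count of 0 allows up to 0.460 CPM on this scale, so the lowest control level was hardly above what Gli3R replicate 3 could have missed. Relative to TMM-scaled library size the Gli3R group had 11.2-fold fewer Hes7 reads, with a 95% interval of 4.04 to 43.2 (exact binomial) that covers counting error only. The size of the ratio depended on which litters were included, with 48.2-fold fewer reads without litter 2 and 5.48-fold without litter 1. The Gli3R group held 4 Hes7 reads in all. Leaving out Gli3R replicate 2 gave 31.96-fold and leaving out control replicate 2 gave 16.9-fold fewer. Hes7 did not have enough reads to enter the test. Without the low-count filter its log2 fold change was -3.48 ± 0.83 and missed the threshold (Benjamini-Hochberg adjusted p = 0.0507 in edgeR's quasi-likelihood fit), and with litter also as a block it passed (0.0213).

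Hes1 (15205), a Notch target gene that is also expressed under other signals, was the most abundant of the 10. Its level was 40.9, 48.7 and 66.7 CPM in Gli3R replicates 1, 2 and 3, against 58.1, 53.4 and 67.6 CPM in control replicates 1, 2 and 3. The groups overlapped, and litter 3 gave the highest value in both. The log2 fold change was -0.20 ± 0.17, with a 95% interval of -0.60 to 0.19 (Benjamini-Hochberg adjusted p = 0.960 in edgeR's quasi-likelihood fit). Its reads summed to 1342 in the Gli3R and 1401 in the control libraries, and a fold change as large as that of Dll3 lay outside this interval.

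Hey1 (15213), a Notch target gene of mesoderm and vessels, had 7.30, 7.82 and 6.14 CPM in Gli3R replicates 1, 2 and 3, against 8.35, 17.3 and 13.4 CPM in control replicates 1, 2 and 3. Each Gli3R library lay below each control library, by little in litter 1. Its log2 fold change was -0.90 ± 0.26 (Benjamini-Hochberg adjusted p = 0.405 in edgeR's quasi-likelihood fit). Nrarp (67122), which encodes a small feedback inhibitor of the Notch complex, had 2.72, 2.18 and 2.92 CPM in the Gli3R and 3.71, 3.85 and 4.31 CPM in the control libraries. Its groups did not overlap and its log2 fold change was -0.60 ± 0.26 (edgeR adjusted p = 0.717). Nrarp passed in no alternative, and Hey1 passed only without the low-count filter and with the litter block together (edgeR adjusted p = 0.0230).

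Ripply2 (382089), which ends the action of Tbx6 at a forming boundary, had the most negative log2 fold change of the 8 tested genes. It had 10, 11 and 0 reads in Gli3R replicates 1, 2 and 3, against 40, 73 and 69 reads in control replicates 1, 2 and 3. The levels were 0.777, 1.41 and 0 CPM in the Gli3R and 7.42, 7.02 and 8.75 CPM in the control libraries, and the groups lay far apart. Relative to TMM-scaled library size this was 9.96-fold fewer reads in the Gli3R group, with a 95% interval of 6.32 to 16.5 for counting error. The log2 fold change of -3.31 ± 0.51 missed the threshold over all genes tested by a small margin (Benjamini-Hochberg adjusted p = 0.0506 in edgeR's quasi-likelihood fit, and 0.0764 with litter as a block). It passed in 4 of 16 alternatives: scaled by library size alone (0.0470 in edgeR), without the low-count filter (8.62e-05), in that fit with the litter block (2.65e-07) and in DESeq2 (adjusted p = 2.72e-08). Over the 16 alternatives the adjusted p reached 0.547, without litter 2, where the log2 fold change was -4.00. Without litter 3 the log2 fold change was -2.77, and without Gli3R replicate 2 it was -3.93.

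Mesp2 (17293), a basic helix-loop-helix gene that sets the front part of a segment, had 2.95, 1.03 and 1.07 CPM in Gli3R replicates 1, 2 and 3, against 3.71, 7.31 and 3.81 CPM in control replicates 1, 2 and 3. The groups did not overlap, but in litter 1 the libraries were close, with within-litter log2 ratios of -0.29, -2.36 and -1.45. The log2 fold change of -1.47 ± 0.45 did not pass (Benjamini-Hochberg adjusted p = 0.449 in edgeR's quasi-likelihood fit), and it was -2.41 without litter 1 and -0.79 without litter 2. It passed without the low-count filter and with the litter block together (edgeR adjusted p = 0.0144). Mesp1, its neighbour and relative, whose Cre marks the sorted cells, had 9.01, 11.1 and 14.3 CPM in the Gli3R and 25.2, 16.0 and 8.12 CPM in the control libraries. Mesp1 thus overlapped between the groups where Mesp2 did not, and its log2 fold change was -0.51 ± 0.35 (edgeR adjusted p = 0.930) and 0.051 without litter 1.

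**Figure D2:**
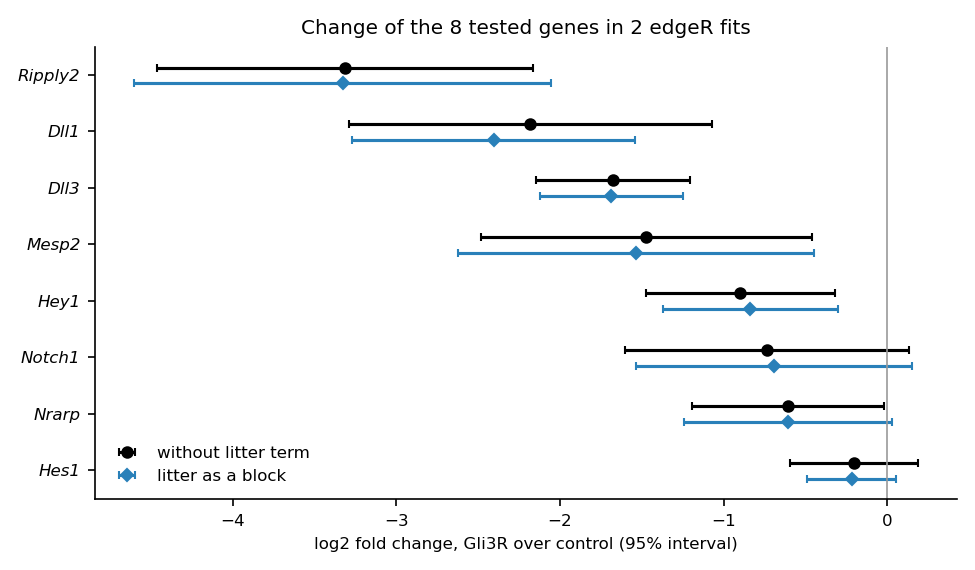
Log2 fold change of the 8 tested genes (Gli3R over control) with 95% intervals, from the fit without a litter term (black) and with litter as a block (blue). Estimates of both fits lie close together, from -3.31 for Ripply2 to -0.20 for Hes1.

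Across the 10 genes, 1 fell (Dll3) and 0 rose over all genes tested in edgeR's quasi-likelihood fit (Benjamini-Hochberg), without the litter block or with it (with it, 0.151% of all tested genes fell and 0.0755% rose). Of the 10, 7 had every Gli3R library below every control library, and 6 of these 7 had entered the test, where such a gap was seen in 6.33% of genes and the opposite one, seen in none of the 10, in 5.62%. In all 3 litters 9 of the 10 were lower in the Gli3R library, against 15.3% of the genes tested, while 15% were higher in all 3. The genes were chosen with results of these libraries known, and Dll1, Mesp2 and Ripply2 entered the test only because of their control levels, so these counts describe the set and support nothing further. The median log2 fold change of the 8 tested genes was -1.18, and that of all tested genes was -0.00787. Summed over the 9 genes other than Hes1, the level was 28.0, 23.7 and 19.9 CPM in the Gli3R and 70.5, 73.1 and 58.3 CPM in the control libraries. Hes1 made up 67.9 ± 8.84% of the summed level of all 10 in the Gli3R and 47.0 ± 5.95% in the control libraries (SD, n = 3 each). In these pools of cells, fewer cells of a type and less RNA per cell cannot be told apart.

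Levels per kilobase of annotated exon (exon lengths from GENCODE M21, which is not the authors' annotation) gave the order of the genes in each group. In the Gli3R libraries Hes1 averaged 35.5 ± 9.02 CPM per kilobase, followed by Hey1 at 2.92 ± 0.36, Dll3 at 1.66 ± 0.11, Ripply2 at 1.45 ± 1.4 and Nrarp at 1.01 ± 0.15 (SD, n = 3). In the control libraries Hes1 averaged 40.7 ± 4.93 CPM per kilobase, Ripply2 15.4 ± 1.80, Hey1 5.38 ± 1.86, Dll3 5.36 ± 1.04 and Dll1 3.89 ± 1.04. Ripply2 thus stood second in the control group, above Hey1 and Dll3 by more than their SDs, and in the Gli3R group it did not differ from its neighbours in the order beyond its SD. In the control libraries the ranges of mean ± SD of Hey1, Dll3 and Dll1 overlapped. Notch1 (0.42 ± 0.05), Lfng (0.23 ± 0.03) and Hes7 (0.0852 ± 0.112) were lowest in the Gli3R group, and in the control group Hes7 (1.07 ± 0.76), Notch1 (0.72 ± 0.44) and Lfng (0.39 ± 0.31) were lowest, in CPM per kilobase.

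Over the 6 libraries the log2 levels of the ligand and boundary genes were correlated; these points share the difference between the groups and the depth of each library. Pearson's r was 0.919 for Dll1 with Ripply2, 0.914 for Dll1 with Mesp2 and 0.881 for Dll1 with Dll3, while for Hes1 it ran from -0.114 with Dll1 to 0.572 with Nrarp. The genes most like each member in log2 level were Tsr1, Map3k4 and Sparcl1 for Dll1 (r from 0.988 to 0.992), Ckb, Snrpb and Gm14680 for Dll3 (0.987 to 0.994) and Gtf2f2, Tars2 and Wdr43 for Ripply2 (0.983 to 0.996). With 6 libraries such values are common: 179, 132 and 146 genes reached r of at least 0.9 with Dll1, Dll3 and Ripply2 among 9335, 9335 and 9336 compared.

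The other lists of Notch pathway genes had medians near 0. Of all tested genes, 3.29% were lower and 3.56% higher at an unadjusted p under 0.05 in edgeR. Of 9 other ligand and receptor genes, 5 were tested and 0 rose or fell (edgeR; 0 at an unadjusted p under 0.05), with a median log2 fold change of -0.08. Notch2, a second receptor gene, stood at -0.32 ± 0.28 and the ligand gene Jag1 at -0.17 ± 0.23. The receptor gene Notch3 stood at 0.53 ± 0.47, and Dlk1, which encodes a relative of the ligands, at -0.08 ± 0.21 and at 0.26 without control replicate 3. Dll4 had 1, 2 and 3 reads in the Gli3R and 1, 5 and 3 in the control libraries, so that Dll1 and Dll3 were the only Dll genes above the filter. Of 34 genes that process, modify or relay the Notch signal, 31 were tested and 0 rose or fell (edgeR; 1 lower and 0 higher at an unadjusted p under 0.05), with a median near 0. They include Rbpj (0.22 ± 0.14) and the protease subunit gene Aph1a, which had the smallest p of the list (-0.34 ± 0.12; Benjamini-Hochberg adjusted p = 0.563 in edgeR's quasi-likelihood fit). Neurl1a (-0.76 ± 0.41), Psen2 (0.66 ± 0.36) and Snw1 (-0.13 ± 0.08) followed. Of 14 other Hes, Hey and Groucho co-repressor genes, 6 were tested and 0 rose or fell (edgeR; 0 at an unadjusted p under 0.05), with a median of 0.06. Among these were Hey2 (0.51 ± 0.33), Hes6 (0.07 ± 0.12), Tle4 (-0.21 ± 0.19) and Aes (0.22 ± 0.40), while Hes5, a Notch target gene, had 3, 4 and 2 reads in the Gli3R and 3, 2 and 0 in the control libraries.

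**Figure D3:**
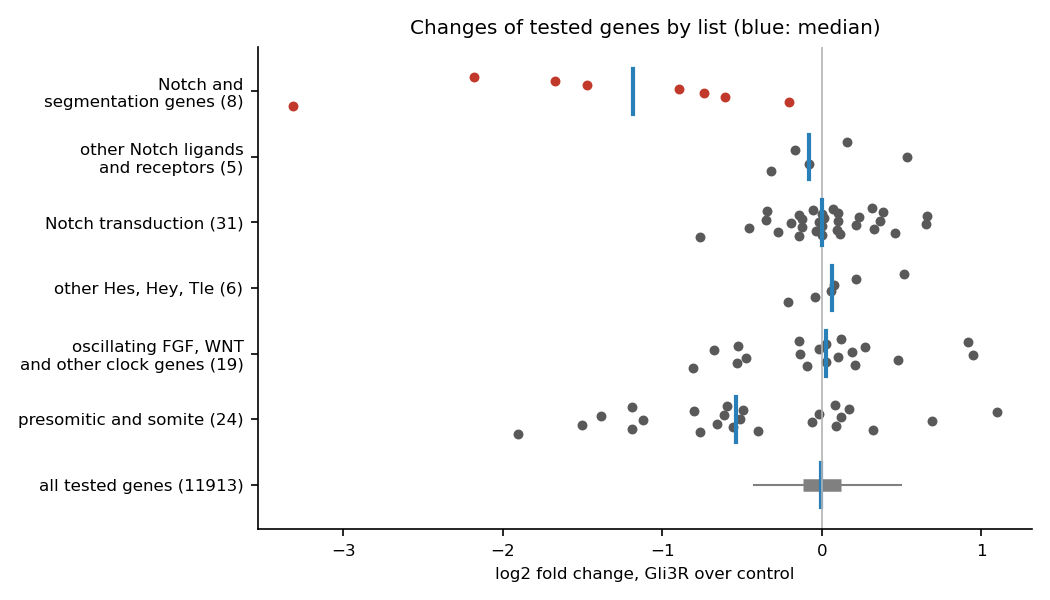
Log2 fold change (Gli3R over control) of each tested gene by list, with the number tested in brackets and the median in blue. The bar for all tested genes spans the 25th to 75th and its line the 5th to 95th percentile (-0.43 to 0.50). The Notch and segmentation genes all lie below 0, and of the other gene lists drawn, the presomitic one has the most negative median (-0.54).

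The FGF and WNT branches of the clock were also compared. Of 20 further genes known to oscillate in the presomitic mesoderm, 19 were tested and 0 rose or fell in edgeR, with a median log2 fold change of 0.03. At an unadjusted p under 0.05 in edgeR, 1 was lower, against 3.29% of all tested genes, and 3 were higher, against 3.56%. The smallest p-values belonged to Phlda1 (0.95 ± 0.20) and the WNT-induced receptor gene Tnfrsf19 (-0.53 ± 0.13), with edgeR quasi-likelihood adjusted p = 0.189 and 0.291. Has2 (0.48 ± 0.19) and the FGF feedback gene Spry2 (0.91 ± 0.38) followed, and the WNT feedback gene Axin2 stood at 0.03 ± 0.41. Phlda1 passed without the low-count filter and in DESeq2 (adjusted p = 0.0186 in edgeR and 0.0169 in DESeq2).

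Of 32 other genes of presomitic mesoderm and somites, 24 were tested; 0 rose or fell without the litter block, when 12 were lower at an unadjusted p under 0.05 against 3.29% of all tested genes, 3 were higher against 3.56%, and Cited1 and Cdx1 fell with the block (Benjamini-Hochberg adjusted p = 0.0144 in edgeR's quasi-likelihood fit and 0.0327). The median log2 fold change was -0.54, with values from -1.91 to 1.10. Aldh1a2, which makes retinoic acid, stood at -1.19 ± 0.30, the protocadherin gene Pcdh8 at -1.51 ± 0.41 and Tcf15 at -0.49 ± 0.15. Aldh1a2 passed without Gli3R replicate 1 (adjusted p = 0.0158 in edgeR), without litter 1 and without the low-count filter. Msgn1, a transcription factor gene that precedes segmentation, had 5.13, 1.79 and 0.767 CPM in the Gli3R and 19.5, 5.77 and 7.61 CPM in the control libraries. Tbx6, which is needed for paraxial mesoderm and switches on Dll1, Mesp2 and Ripply2 in the mouse, had 4.66, 1.67 and 1.38 CPM in the Gli3R and 14.1, 5.39 and 3.04 CPM in the control libraries. T, the Brachyury gene of the streak, had 8.08, 5.13 and 3.53 CPM in the Gli3R and 43.6, 16.4 and 7.99 CPM in the control libraries. Each of the 3 was lower in the Gli3R library of every litter. Without the block none of them passed (edgeR adjusted p = 0.466 for Msgn1, 0.714 for Tbx6 and 0.402 for T), and with it T fell (0.0373). Without the low-count filter T and Msgn1 passed (edgeR adjusted p = 0.0106 and 0.0336), and with the block as well so did Tbx6 (0.000735).

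The genes differed in which litter had the largest ratio. The within-litter log2 ratio of T was -2.36, -1.58 and -1.08 in litters 1, 2 and 3 and that of Tbx6 -1.50, -1.44 and -0.91, so both were least negative in litter 3, as were Dll3, Notch1 and Hes1. Dll1 was most negative in litter 3 (-3.19), as were Ripply2 (-4.21, with 0 reads in the Gli3R library) and Msgn1 (-2.68). Hey1 and Mesp2 were near 0 in litter 1 (-0.18 and -0.29). Each such ratio rests on 1 library of each group and was not tested.

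**Figure D4:**
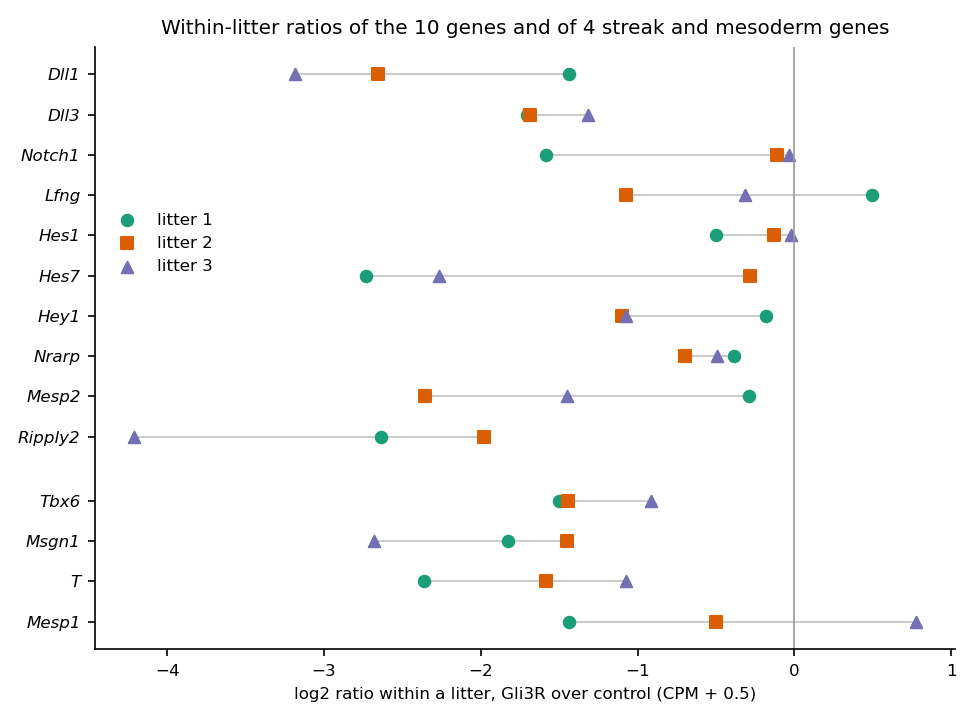
Log2 ratio of Gli3R over control within each litter (CPM + 0.5) for the 10 genes and, below the gap, for Tbx6, Msgn1, T and Mesp1. All ratios of the 10 genes are below 0 except Lfng in litter 1 (0.49). Dll3 (-1.71 to -1.31) and Nrarp (-0.70 to -0.39) vary least among litters.

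Levels of markers of other cells are given beside these genes; no test was made of a marker list. The 10 primitive streak markers summed to 22.1 to 36.8 CPM in the Gli3R and 35.6 to 99.6 CPM in the control libraries, which overlapped. The 10 epiblast and neural markers summed to 30.5 to 38.1 CPM in the Gli3R and 45.9 to 99.3 CPM in the control libraries, with Sox1 at 0 in every library. Control replicate 1 was highest for both. Of 5 epiblast and neural markers tested, 4 were lower in all 3 litters and 0 higher (15.3% and 15% of all tested genes). Log2 fold changes were -3.11 ± 0.53 (SE) for Cdh1, -2.71 ± 0.55 for Hesx1 and 0.12 ± 0.21 for Otx2. Cdh1 fell with litter as a block (adjusted p = 0.0327 in edgeR). Of 8 streak markers tested, 5 were lower in all 3 litters and 0 higher, with Fgf4 at -3.39 ± 0.76 and Wnt3 at 0.40 ± 0.42. Cdh1, Hesx1 and Fgf4 passed the filter only through their control levels. The 9 node markers summed to 6.75 to 10.3 CPM in the Gli3R and 11.7 to 51.2 CPM in the control libraries. Foxj1 was at 0 in every library, and Shh and Chrd had 10 reads or fewer in all. T, also one of the streak markers, made up most of the node sum in each library. It had 8.08, 5.13 and 3.53 CPM in the Gli3R and 43.6, 16.4 and 7.99 CPM in the control libraries. Markers of endothelium, a cell type that also uses Notch, summed to 286 to 308 CPM in the Gli3R and 205 to 259 CPM in the control libraries (11 genes). The means differed most for Etv2 (96.2 CPM in the Gli3R and 62.2 CPM in the control group) and Tal1 (30.8 and 15.8 CPM). Pecam1 was similar (11.4 and 10.8 CPM), and Egfl7 (73.9 and 80.5 CPM), Sox17 (4.08 and 5.24 CPM) and Cdh5 (0.718 and 0.959 CPM) had lower means in the Gli3R group. Visceral endoderm markers overlapped between the groups (14.1 to 51.9 CPM in the Gli3R and 12.99 to 40.8 CPM in the control libraries, sum of 10). The part of these markers in the levels of the Notch genes was not tested. Without control replicate 1 the log2 fold changes were -1.56 for Dll3, -2.08 for Dll1, -3.34 for Ripply2, -1.61 for Mesp2 and -1.11 for Hey1.

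Some counts could include reads of other annotated genes, which was not tested. Whole gene spans, introns included, were compared rather than exons, on a build other than the mm9 of the counts. RefSeq (GRCm38.p6) lists genes that overlap the spans of Notch1 (2 genes), Hes7 (2), Hey1 (1) and Ripply2 (1), and none for the other 6. Reads of overlapping genes cannot be told apart where the strand was not used in counting, and whether it was used is not given in the sources used here.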

How the data were processed

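The authors deposited raw counts per Entrez gene for 6 libraries. Build mm9 and the tools TopHat2 2.0.14, Subread 1.4.6, edgeR, FastQC and featureCounts come from the submitters' processing notes, which give no roles. The annotation, the strand setting and how multiply matching reads were handled: not given in the sources used here. A SMARTer Ultra Low kit for cDNA and Nextera XT for libraries were used, per the labels' protocols; copies made by amplification count as reads, so intervals on reads cover counting error only. Symbols turned into dates (27) were restored by Entrez ID.

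Counts were analysed in R 4.3.3 with edgeR 4.0.16: filterByExpr (minimum count 10, about 1.28 CPM in 3 libraries), which left 11913 genes, TMM scaling and the two-sided quasi-likelihood test of Gli3R against control (p adjusted by Benjamini-Hochberg, threshold 0.05). SE is the log2 fold change over the root of F. On the TMM scale a single read equalled 0.0777 to 0.186 CPM; the limit that a count of 0 allows (3 counts) was 0.233 to 0.557 CPM. The labels give the litters, so a second fit had litter as a block. Deviations from group means correlated at 0.168, 0.187 and 0.0755 within litters. Between libraries of different litters they ran from -0.269 to 0.162, so the ranges overlapped. P-values measure the spread between 3 pools per group. No outcome of a check of the fit on simulated counts is reported here.

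The genes and lists were chosen with earlier results of these data known. Named are the 10 genes, Gli3, Tbx6, Msgn1, T and Mesp1, of each pathway list the 4 tested genes with the smallest p and those past the threshold in either fit, and the 3 genes of at least 5 CPM most correlated with Dll1, Dll3 and Ripply2 (log2 CPM, prior count 2). Rbpj, Axin2, Dll4, Hes5 and the other single cell type markers named were added after their values were seen. Alternatives were the block, DESeq2 1.42.0 and its size factors, library size alone, other filters, and leaving out each library or litter; the fit with no filter and the block together was chosen after seeing the data.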

Additional observations from a re-analysis of the deposited data

How the results depend on the processing

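The log2 fold changes of the 8 tested genes were negative in each alternative that gave a value; Notch1, Nrarp and Mesp2 had none under the filter of 5 CPM in 3 libraries. With litter as a replicate block 9 genes rose and 18 fell, and Dll3 was again the single one of the 10; no call among the 10 changed under this filter. Library size alone gave 5 that rose and, of the 10, 2 that fell. Without a filter, 49 rose and 59 fell, with 3 of the 10 that fell; with the replicate block as well, a fit chosen after seeing the data, 160 rose and 124 fell, with 6 of the 10 (Dll1, Dll3, Hes7, Hey1, Mesp2 and Ripply2). At 5 CPM in 3 libraries 1 rose. DESeq2 called 38 higher and 49 lower, with 2 of the 10. Without litter 1, 5 rose and 22 fell, with 2 of the 10; without litter 2, 0 rose and 2 fell, with 0 of the 10; without litter 3, 0 rose and 0 fell (747 genes at an unadjusted p under 0.05 in edgeR), with 0 of the 10. Leaving out 1 library gave 0 to 2 that rose, 0 to 16 that fell and 0 to 1 of the 10 that fell; without Gli3R replicate 3, 0 passed (659 at an unadjusted p under 0.05 in edgeR). The log2 fold change turned in sign for Mesp1 without litter 1 (0.051), Dlk1 without control replicate 3 (0.26, in a range from -0.26 on leaving out 1 library) or litter 3 (0.17), and Aes without Gli3R replicate 3 (-0.082, in a range up to 0.59) or litter 3 (-0.27). The ratio of Hes7 reads was 0.0893, and 0.0207 without litter 2. The cause of these shifts was not tested. With 6592417 to 12635151 counts in the Gli3R and 5481190 to 10435790 in the control libraries, Lfng and Hes7 did not pass the low-count filter.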
